A study of Mus musculus with 8 samples.

Results

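Cybb, Cyba, Ncf1, Ncf4 and Rac2 encode subunits of the phagocyte NADPH oxidase. The 5 genes were found by their symbols among the 52550 genes listed in every table, and each symbol matched 1 row. Their RNA levels were read in 2 bone marrow populations, pre-pro-B and pro-B cells, that the study sorted on a flow cytometer from wild type (WT) and lactoferrin knockout (Lf-/-) mice, all C57BL/6J and untreated. The study asked what lactoferrin deficiency does to early B cell development, and its methods give AA4.1+, B220+ and CD24- among the criteria of the pre-pro-B gate and B220+ CD43+ IgM- as the pro-B gate. Pre-pro-B cells gave 2 WT and 2 Lf-/- libraries and pro-B cells 1 WT and 2 Lf-/- libraries, 7 in all, and WT pro-B replicate 2 was not analysed here. The age of the mice is not given in the sources used here, and the labels name a knockout of the gene with no Cre driver. The labels do not say whether a library came from 1 animal or from pooled animals, and the methods give a number of mice per group that differs from the number of repeats in the legends, so p-values measure only the spread between these libraries.

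The phagocyte oxidase moves electrons from NADPH across a membrane to oxygen and makes superoxide, which neutrophils and macrophages use against microbes. Cybb (gp91phox) and Cyba (p22phox) form the membrane cytochrome. Ncf1 (p47phox) and Ncf4 (p40phox) wait in the cytosol as parts of a complex that joins the cytochrome on activation together with the GTPase Rac2. Loss of the enzyme causes chronic granulomatous disease. In the bone marrow these genes are known for high expression in the maturing neutrophil and monocyte lineages, and B cells express the oxidase at lower levels.

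Levels are FPKM, fragment counts relative to transcript length and to the library's total, so that genes of different length can be compared within a library. In 6 of the 7 libraries the lowest values were multiples of a unit, the worth of 1 fragment, which put depth at 11000000 to 15000000 fragments. Lf-/- pre-pro-B replicate 2 stood apart. It showed no such step, had 12172 genes above 0 against 19477 to 20250 in the others, and differed from each of the others by a median of 0.755 to 0.941 on the log2 scale, against 0.261 to 0.572 among the others. The genotype differences of the subunits in pre-pro-B cells and over both stages are given with and without it. Between stages and in the interaction this was done for some of the subunits. Over both stages, it was also done for the lists of genes that act with the oxidase and those named genes of theirs that this library moved by over 1.5 times. Ltf, the deleted gene, was at 2143, 2731 and 2650 FPKM with WT genotype and at 88.2, 149, 168 and 96.0 FPKM with Lf-/- genotype, without overlap. A list of 18 neutrophil markers made up 27.5 to 55.3% of a library's summed FPKM and a list of 16 early B lineage markers 0.0238 to 0.342%, so neutrophil transcripts outweighed B lineage transcripts in every library, whatever its label.

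Promoter sequence was found for 3 of the 5 genes, Cybb, Cyba and Ncf1, in the RefSeq table for GRCm38.p6. The 250 bases before each start are shown because Cyba and Cybb, whose proteins pair in the cytochrome, lay far apart in RNA level, and Ncf1 lay at the level of Cybb. Each is read 5′ to 3′ on the minus strand, where all 3 genes lie. The window of Cybb lies inside its GENCODE span, which reaches further upstream. Capitals mark CCAAT and GGGCGG, searched on both strands together with GAGGAA.
Cybb, chrX:9469325-9469574: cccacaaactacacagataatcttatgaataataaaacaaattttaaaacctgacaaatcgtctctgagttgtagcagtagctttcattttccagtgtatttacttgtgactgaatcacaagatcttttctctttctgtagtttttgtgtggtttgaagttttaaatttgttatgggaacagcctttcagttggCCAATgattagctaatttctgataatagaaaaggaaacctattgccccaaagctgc
Cyba, chr8:122432941-122433190: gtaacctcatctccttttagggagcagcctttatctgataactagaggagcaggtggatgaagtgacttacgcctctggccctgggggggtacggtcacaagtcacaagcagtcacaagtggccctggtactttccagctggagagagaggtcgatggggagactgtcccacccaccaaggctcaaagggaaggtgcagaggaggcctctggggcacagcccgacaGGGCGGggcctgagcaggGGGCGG
Ncf1, chr5:134229626-134229875: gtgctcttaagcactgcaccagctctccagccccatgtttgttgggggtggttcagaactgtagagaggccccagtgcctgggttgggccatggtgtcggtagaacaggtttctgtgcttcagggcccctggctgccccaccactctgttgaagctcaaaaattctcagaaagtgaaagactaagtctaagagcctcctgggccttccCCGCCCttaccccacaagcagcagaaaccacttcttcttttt
The G and C content was 34% before Cybb, 60% before Cyba and 54.4% before Ncf1, against a median of 52.4% over 32851 RefSeq promoters of the same length. Cybb had 1 CCAAT, which starts at position -56 and is held by 33.85% of all promoters. Cyba had 2 copies of GGGCGG at -24 and -6, and Ncf1 had 1 on the other strand at -42, a motif held by 32.74% of all promoters. GAGGAA, held by 23.25%, was in none of the 3 windows.

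The membrane subunits lay far apart in level. Cyba (chromosome 8 of GRCm38, 122424776 to 122432930, minus strand) was in pre-pro-B libraries at 1508 and 1869 FPKM for WT and at 1269 and 1211 FPKM for Lf-/-, and in pro-B libraries at 1737 FPKM for WT and at 1122 and 1607 FPKM for Lf-/-. The 3 WT libraries were at 1508 FPKM or above, as was 1 of the 4 Lf-/- libraries. In the order of all genes of a library Cyba ranked between 41 and 64. Its span lies inside that of Gm20388, on the opposite strand, which is listed at 0 in all 7 libraries. Cybb (chromosome X, 9435252 to 9487771, minus strand) was in pre-pro-B libraries at 58.8 and 50.5 FPKM for WT and at 42.5 and 96.9 FPKM for Lf-/-, and in pro-B libraries at 49.0 FPKM for WT and at 54.6 and 49.7 FPKM for Lf-/-. Its lowest and its highest value both came from Lf-/- pre-pro-B cells, and the highest was that of replicate 2. The highest was 2.28 times the lowest over 7 libraries and 1.38 times without that library.

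Ncf1 is the organizer that binds the tail of p22phox, and its SD over libraries as deposited was the smallest of the 5 on the log2 scale, though not after median-ratio scaling, where it was 0.28 beside 0.27 for Rac2. Ncf1 (chromosome 5, 134220053 to 134229625, minus strand) was in pre-pro-B libraries at 57.3 and 62.1 FPKM for WT and at 38.3 and 54.8 FPKM for Lf-/-, and in pro-B libraries at 49.7 FPKM for WT and at 60.9 and 54.7 FPKM for Lf-/-. In pre-pro-B cells both WT values were above both Lf-/- values, and in pro-B cells the WT value was the lowest. The gene overlaps Gtf2ird2, on the opposite strand, which was at 0.0126 to 0.851 FPKM. Whether the counting used strand is not given in the sources used here.

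Ncf4, which binds phosphatidylinositol 3-phosphate on the phagosome, was the more abundant cytosolic subunit. Ncf4 (chromosome 15, 78244801 to 78262580, plus strand) was in pre-pro-B libraries at 170.3 and 204 FPKM for WT and at 143 and 273 FPKM for Lf-/-, and in pro-B libraries at 164 FPKM for WT and at 135 and 227 FPKM for Lf-/-. The lowest and the highest value both came from Lf-/- cells, and Lf-/- pre-pro-B replicate 2 was again the highest library. Rac2, the haematopoietic Rac GTPase, lies on the same chromosome at 78559167 to 78572783 on the minus strand. It was in pre-pro-B libraries at 488 and 771 FPKM for WT and at 492 and 743 FPKM for Lf-/-, and in pro-B libraries at 495 FPKM for WT and at 595 and 741 FPKM for Lf-/-. The WT pre-pro-B libraries held both the lowest and the highest value, so the spread within that group was as wide as that over all 7 libraries.

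**Figure D1:**
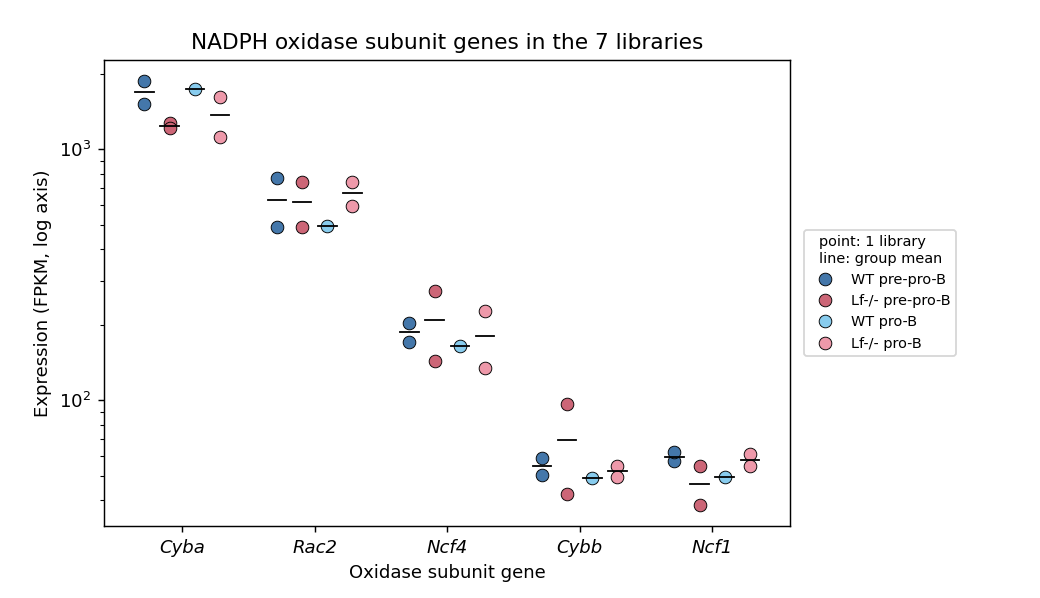
FPKM on a log axis for the 5 oxidase subunit genes, with 1 point per library, coloured by genotype and stage, and a line at each group mean. Cyba lies between 1122 and 1869 FPKM, Rac2 between 488 and 771, Ncf4 between 135 and 273, and Cybb and Ncf1 share the range below 100 FPKM, where Lf-/- pre-pro-B replicate 2 is the highest point of Cybb at 96.9.

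The order of levels was Cyba, Rac2, Ncf4 and then Cybb and Ncf1 in all 7 libraries, whatever the genotype or stage. The ranges of Cyba, Rac2 and Ncf4 over the libraries did not overlap with each other or with those below. Cybb and Ncf1 overlapped and changed places between libraries. The group means in WT pre-pro-B cells were 1688 ± 255 FPKM (SD, n = 2) for Cyba, 629 ± 200.03 for Rac2, 187 ± 23.5 for Ncf4, 59.7 ± 3.43 for Ncf1 and 54.6 ± 5.85 for Cybb. In Lf-/- pre-pro-B cells they were 1240 ± 40.8 FPKM (SD, n = 2) for Cyba, 617 ± 177 for Rac2, 208 ± 91.5 for Ncf4, 46.5 ± 11.7 for Ncf1 and 69.7 ± 38.5 for Cybb. In Lf-/- pro-B cells they were 1365 ± 343 FPKM (SD, n = 2) for Cyba, 668 ± 104 for Rac2, 181 ± 65.4 for Ncf4, 57.8 ± 4.39 for Ncf1 and 52.2 ± 3.47 for Cybb.

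Cyba alone made up 50.9 to 69.6% of the 5 genes' summed FPKM, and it was 12.5 to 37.0 times Cybb. The lowest Cyba to Cybb ratio was that of Lf-/- pre-pro-B replicate 2. The Ncf4 to Ncf1 ratio ran from 2.21 to 4.98. These ratios, with Rac2 to Rac1, were chosen after the values were seen. Between 3 WT and 4 Lf-/- libraries, 4 ratios were compared by an exact two-sided permutation test and adjusted together, of which 3 are given, with p = 0.286 for Cyba to Cybb (adjusted p = 0.571), 0.571 for Ncf4 to Ncf1 (0.762) and 0.8 for Rac2 to Rac1 (0.8). The smallest p this design allows is 0.0571.

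As deposited, the values of the subunits varied less over the 7 libraries than the median gene. The SD over libraries on the log2(FPKM + 1) scale was 0.38 for Cybb, 0.28 for Cyba, 0.23 for Ncf1, 0.36 for Ncf4 and 0.31 for Rac2, where the median of the 3235 genes with a mean of at least 10 FPKM was 0.45. Among these genes Ncf1 stood at percentile 7.30 and Cyba at percentile 14.3. After median-ratio scaling, which sets the libraries to a common median gene, the SD of Cyba was 0.50 (percentile 66.9), above the median gene at 0.38, and the others stood between percentiles 26.6 and 42.6. The counting error of a subunit's value, estimated from its transcript length and the depth, was 0.544 to 2.87% in the 6 libraries with a known depth. It covers counting error only, and it was far below the differences between libraries.

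Genotypes were first compared in pre-pro-B cells. Of 9720 genes tested with limma, 0% passed an adjusted p of 0.05 and 2.92% an unadjusted p of 0.05, and 0 of the 5 subunit genes passed either. Cyba had a difference (Lf-/- minus WT) of -0.44 on the log2(FPKM + 1) scale (SE 0.43, adjusted p = 0.941) and Ncf1 of -0.37 (SE 0.42, adjusted p = 0.941). Both Lf-/- values of these genes lay below both WT values, as in 17.7% of all genes tested, while 15.5% of all genes had them above. Cybb (0.23, SE 0.52, adjusted p = 0.959), Ncf4 (0.09, SE 0.48, adjusted p = 0.978) and Rac2 (-0.02, SE 0.48, adjusted p = 0.995) overlapped. The 95% interval allowed Cyba to be from 0.35 to 1.56 times its WT level and Cybb from 0.478 to 2.90 times, and these intervals bound the change that the 4 libraries allow. Without Lf-/- pre-pro-B replicate 2, the differences were -0.35 for Cybb and -0.37 for Ncf4, below 0 in place of above it. They were -0.40 for Cyba, -0.63 for Ncf1 and -0.32 for Rac2. All of these rest on Lf-/- pre-pro-B replicate 1 as the only Lf-/- library. In these bulk samples, fewer cells of a type and less RNA per cell cannot be told apart.

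Over both stages, with all 7 libraries and stage as a covariate, 0.185% of 10793 genes passed an adjusted p of 0.05 in limma, and 0 of the 5 subunit genes did, with 0 at an unadjusted p of 0.05, where the share of all genes was 7.17%. The difference furthest from 0 was that of Cyba at -0.41 (SE 0.28, adjusted p = 0.695), with an interval of 0.488 to 1.16 times its WT level. It was followed by Cybb at 0.18 (SE 0.34, adjusted p = 0.850), Rac2 at 0.16 (SE 0.31, adjusted p = 0.855), Ncf1 at -0.14 (SE 0.29, adjusted p = 0.860) and Ncf4 at 0.09 (SE 0.34, adjusted p = 0.925). The genotypes overlapped in all 5 genes, where 9.87% of all genes had every Lf-/- value above every WT value and 1.13% had every one below. Without Lf-/- pre-pro-B replicate 2 Cybb was at -0.13, Ncf4 at -0.14, Ncf1 at -0.21 and Rac2 at 0.05, and Cyba stayed at -0.39.

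The median of all genes was itself 0.21 higher in Lf-/- libraries in this comparison, and -0.06 after median-ratio scaling. Relative to the median of all genes as deposited, Cyba was at -0.62, Ncf1 at -0.35, Ncf4 at -0.12, Rac2 at -0.05 and Cybb at -0.03. After median-ratio scaling the differences were -0.77 for Cyba, -0.50 for Ncf1, -0.27 for Ncf4, -0.20 for Rac2 and -0.18 for Cybb, so that the signs of Ncf4, Rac2 and Cybb turned. Cyba and Ncf1 were lower in Lf-/- under both scalings and under quantile normalization. No adjusted p among these was under 0.05.

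In pro-B cells there was 1 WT library, so no test was made. The differences (mean of 2 Lf-/- libraries minus the WT library) were -0.37 for Cyba, 0.09 for Cybb, 0.21 for Ncf1, 0.09 for Ncf4 and 0.42 for Rac2. None of the 5 reached 2-fold, which 14.6% of 9662 genes did. Of the genes that did, 92.7% were higher in Lf-/-, and 54.0% after median-ratio scaling. Both Lf-/- values of Cybb, Ncf1 and Rac2 were above the WT value, as in 77.3% of all genes, and both of Cyba were below it, as in 6.53%. The median of all genes was 0.51 here and 0.01 after median-ratio scaling. With that scaling all 5 subunit genes were lower in Lf-/-, at -0.55 for Cybb, -0.43 for Ncf1, -0.56 for Ncf4 and -0.22 for Rac2. Cyba then passed 2-fold at -1.02, as did 774 of the 9662 genes in either direction. In the WT pro-B library the neutrophil markers made up 55.3% of summed FPKM, against 37.2 and 41.9% in the Lf-/- pro-B libraries, and the part of this share in the differences was not tested.

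Whether the genotype difference itself differed between stages was tested as an interaction over 4 group means. Of 10793 genes 0% passed an adjusted p of 0.05 in limma and 2.74% an unadjusted one, and none of the 5 subunit genes passed either. Ncf1 had a difference between stages of 0.58 (SE 0.57, adjusted p = 0.990), Rac2 of 0.45 (SE 0.67, adjusted p = 0.991), Cybb of -0.15, Cyba of 0.07 and Ncf4 of 0.0024. Without Lf-/- pre-pro-B replicate 2 Ncf1 was at 0.84, Rac2 at 0.74, Ncf4 at 0.46 and Cybb at 0.44, with adjusted p from 0.361 for Ncf1 to 0.688 for Ncf4 in limma, in a fit where Lf-/- pre-pro-B and WT pro-B cells have 1 library each and are assumed to vary like the other groups.

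No subunit gene passed the test between stages. The differences (pro-B minus pre-pro-B, genotype as a covariate) were -0.24 for Cybb (SE 0.34), 0.09 for Cyba (SE 0.28), 0.09 for Ncf1 (SE 0.29), -0.18 for Ncf4 (SE 0.34) and -0.04 for Rac2 (SE 0.31), with adjusted p from 0.947 to 0.984 in limma. Of 10793 genes, 0.00927% passed an adjusted p of 0.05 and 2.41% an unadjusted one, and none of the 5 was among them. The stages overlapped in each of the 5, where 1.2% of all genes had every pro-B value above every pre-pro-B value and 0.945% had every one below. The intervals reached from 0.497 to 1.44 times for Cybb and from 0.689 to 1.64 times for Cyba. Without Lf-/- pre-pro-B replicate 2, Cybb was at 0.07, Ncf4 at 0.05 and Rac2 at 0.06. The labels give the names WT1, KO1 and KO2 to a library of each stage without stating that each name is 1 mouse, and with the name as a block 8 genes passed, with no subunit gene among them.

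**Figure D2:**
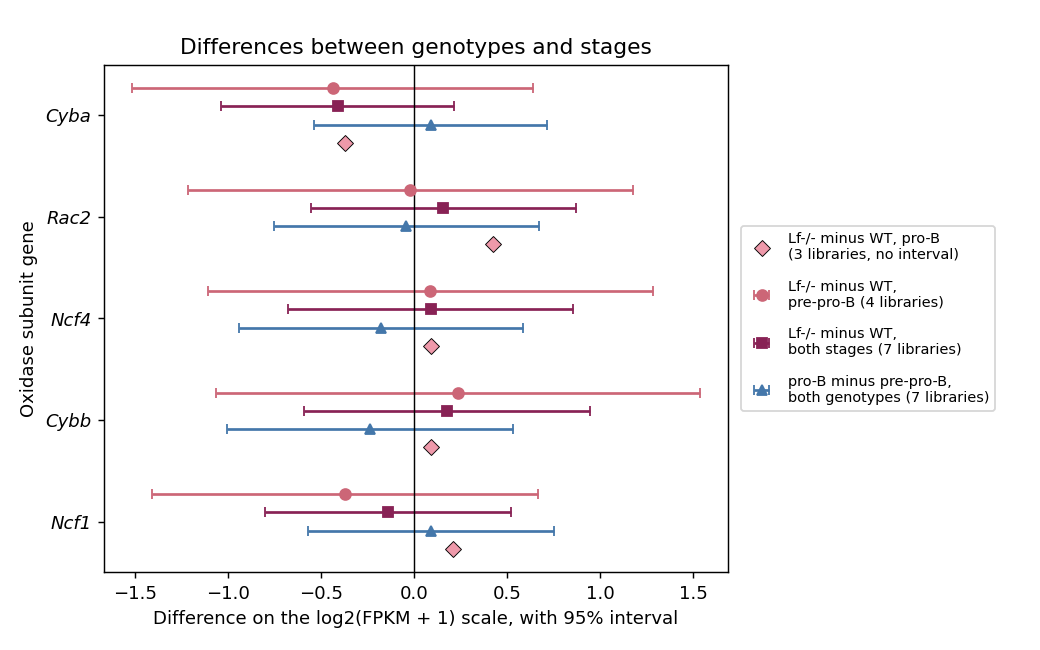
Differences on the log2(FPKM + 1) scale for each subunit gene, with 95% intervals from limma for Lf-/- minus WT in pre-pro-B cells and over both stages and for pro-B minus pre-pro-B, and points without an interval for the 3 pro-B libraries. Every interval crosses 0, and Cyba lies to the left in all 3 genotype comparisons, at -0.44, -0.41 and -0.37. The comparison over both stages reuses the libraries of the others.

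Of 13 further oxidase genes, 4 passed the filter of at least 1 FPKM in 2 libraries, of which 3 are described. Rac1, the widely expressed GTPase, ran from 27.7 to 53.9 FPKM, and Rac2 was 10.5 to 26.8 times Rac1. Rap1a, a GTPase that copurifies with the cytochrome, ran from 10.8 to 20.7 FPKM. Cybc1 (Eros), a chaperone that gp91phox needs for its stability, was at 8.22, 12.3, 8.84 and 13.04 FPKM in the pre-pro-B libraries, 4.47 FPKM in WT pro-B and 13.1 and 13.9 FPKM in Lf-/- pro-B. The WT pro-B library was the lowest, and the pro-B difference of 1.41 was the only one of these 4 genes and the subunits to pass 2-fold as deposited. Over both stages Cybc1 was at 0.61 (SE 0.37, adjusted p = 0.689 in limma), and its genotypes overlapped. After median-ratio scaling it was at 0.29 over both stages and at 0.84 in pro-B cells, below 2-fold. Nox1, Nox3, Nox4, Duox1, Duox2, Duoxa1 and Duoxa2, which belong to the oxidases of epithelia and other tissues, were listed at 0 in all 7 libraries. Noxo1, the counterpart of p47phox for Nox1, reached 0.202 FPKM and Noxa1, its partner in activating Nox1, 0.0179.

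Genes that switch the oxidase on or feed it were read as lists. Over both stages, none of the 23 activation genes tested, 10 genes of NADPH supply, 18 of oxidant handling and 10 transcription factors passed an adjusted p of 0.05 in limma, with 2, 1, 2 and 3 past an unadjusted one, which 7.17% of all genes passed. Of the activation genes 20 of 23 had a difference above 0, with a median of 0.38, where the median of all genes was 0.21. After median-ratio scaling 12 of 23 were above 0, with a median of 0.05 against -0.06 for all genes, and without Lf-/- pre-pro-B replicate 2 the count was 19 of 23 with a median of 0.31. The 3 most abundant were Arhgdib, which holds Rac2 inactive in the cytosol, at 1867 to 3704 FPKM with a difference of -0.32 (SE 0.32; -0.68 after median-ratio scaling), the Fc receptor Fcgr3 at 79.0 to 244 FPKM with 0.44 (SE 0.43; 0.08 after that scaling and 0.10 without Lf-/- pre-pro-B replicate 2), and Arhgdia, the ubiquitous counterpart of Arhgdib, at 73.9 to 142 FPKM with 0.34 (SE 0.30; -0.02 after that scaling). The order of Arhgdib over Arhgdia matched that of Rac2 over Rac1 in every library.

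Among genes of NADPH supply, 7 of 10 had a difference above 0, with a median of 0.05, and 4 of 10 after median-ratio scaling, with a median of -0.29, and 4 of 10 without Lf-/- pre-pro-B replicate 2, with a median of -0.12. Taldo1, G6pdx and Pgls of the pentose phosphate pathway were the most abundant, at 162 to 263, 44.7 to 105 and 52.6 to 92.0 FPKM. G6pdx, whose product makes the NADPH that the oxidase uses, was at -1.07 (SE 0.39, adjusted p = 0.941 in limma) in pre-pro-B cells and at -0.45 (SE 0.36, adjusted p = 0.710) over both stages. Its difference over both stages was -0.80 after median-ratio scaling and -0.23 without Lf-/- pre-pro-B replicate 2. Among genes of oxidant handling 8 of 18 were above 0, with a median of -0.06, and 3 of 18 after median-ratio scaling, with a median of -0.42, and 6 of 18 without Lf-/- pre-pro-B replicate 2, with a median of -0.17. Mpo, which turns hydrogen peroxide into hypochlorous acid, had values of 2778, 5176 and 3157 FPKM in the WT libraries and of 2543, 1260, 835 and 1818 FPKM in the Lf-/- libraries. All Lf-/- values were below all WT values, as in 1.13% of all genes, with a difference of -1.19 (SE 0.41, adjusted p = 0.560 in limma). Gpx1 was at 1008 to 3975 FPKM with a difference of -0.55 (SE 0.48; -0.91 after median-ratio scaling), and Prdx5, a peroxiredoxin, at 337 to 479 FPKM with -0.32 (SE 0.26; -0.68 after that scaling).

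Of 14 transcription factors known to act on oxidase genes, 10 passed the filter, with 8 of 10 above 0 and a median of 0.27, and 5 of 10 after median-ratio scaling, with a median of -0.05, and 6 of 10 without Lf-/- pre-pro-B replicate 2, with a median of 0.19. Spi1 (PU.1), which drives Cybb and Ncf1 in myeloid cells, was at 115 to 193 FPKM with a difference of 0.14 (SE 0.29), which was -0.22 after median-ratio scaling and -0.04 without Lf-/- pre-pro-B replicate 2. Cebpe, needed for granule genes late in neutrophil maturation, was at 121 to 269 FPKM with -0.21 (SE 0.34), or -0.58 after median-ratio scaling and -0.36 without that library, and Cebpb at 66.3 to 210.4 FPKM with 0.45 (SE 0.33), or 0.09 and 0.24. Adjusted p was from 0.698 to 0.865 for these 3 in limma. In pre-pro-B cells and between stages, too, 0 genes of the 4 lists passed an adjusted p of 0.05 in limma. At an unadjusted p of 0.05 there were 2 genes of NADPH supply and 2 of oxidant handling in pre-pro-B cells, where 2.92% of all genes passed, and 1 of oxidant handling and 1 transcription factor between stages, where 2.41% did.

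**Figure D3:**
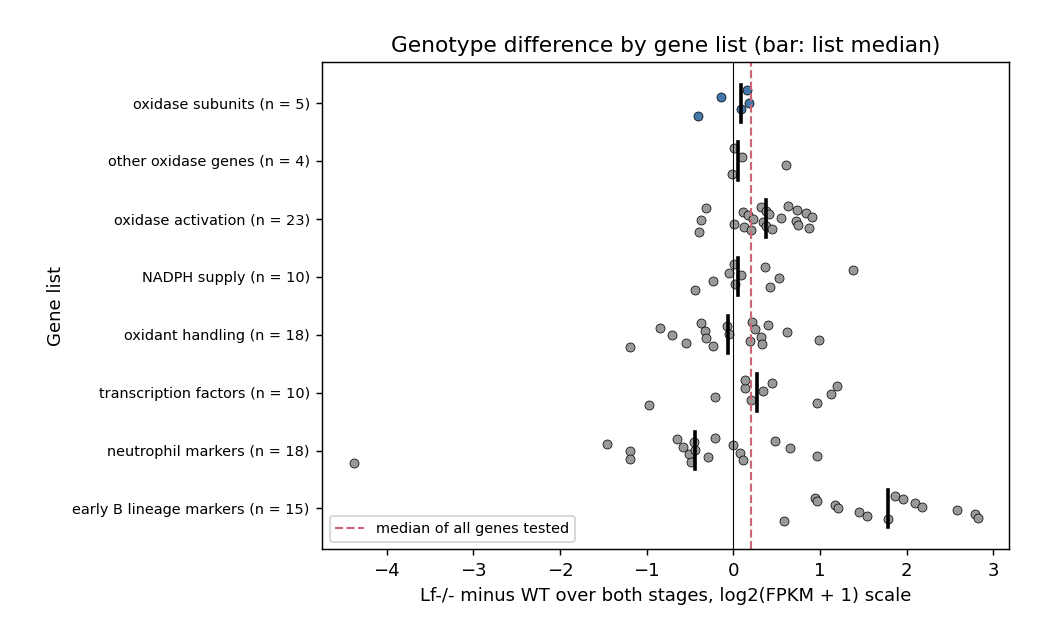
Genotype differences over both stages (Lf-/- minus WT, log2(FPKM + 1) scale, 7 libraries), with 1 point per gene tested, a bar at each list's median and a dashed line at 0.21, the median of all 10793 genes. The subunit genes lie between -0.41 and 0.18, while early B lineage markers have a median of 1.78 and neutrophil markers of -0.44, with Ltf the point at -4.38.

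Levels of the subunits were set beside marker lists, since several cell types of the marrow express the oxidase. The summed FPKM of the 5 genes was 0.286 and 0.381% of the WT pre-pro-B libraries, 0.238 and 0.342% of the Lf-/- pre-pro-B, 0.299% of the WT pro-B and 0.268 and 0.366% of the Lf-/- pro-B libraries. The neutrophil list, led by S100a8, S100a9 and Ngp, took in that order 41.0 and 41.7%, 39.4 and 27.5%, 55.3%, and 37.2 and 41.9%. Relative to that list the subunits came to 0.540% in WT pro-B and to 1.24% in Lf-/- pre-pro-B replicate 2, the libraries with the highest and the lowest neutrophil share. All 18 neutrophil markers were above 0 in every library, and over both stages 1 of 18, Ltf, passed in limma (-4.38, SE 0.33, adjusted p = 0.00206), with a list median of -0.44, and of -0.81 after median-ratio scaling. Of the 18, 13 had a difference below 0 and 5 above it, or 15 and 3 after median-ratio scaling. In 6 every Lf-/- value was below every WT value, as in 1.13% of all genes. Ltf, the deleted gene, is among the 13, the 15 and the 6.

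Early B lineage markers, led by Cd79a, Cd79b and Vpreb1, took in the same order 0.0655 and 0.0624%, 0.340 and 0.321%, 0.0238%, and 0.342 and 0.196%, with no overlap between genotypes in this summed share. By gene, 7 of the 15 tested had every Lf-/- value above every WT value, as in 9.87% of all genes, and the rest overlapped. All 15 that were tested had a difference above 0, with a median of 1.78, and 3 passed in limma, among them Cd79a (2.79, SE 0.34, adjusted p = 0.0273) and Cd79b (2.82, SE 0.30, adjusted p = 0.0136), the signalling chains of the B cell receptor. After median-ratio scaling all 15 stayed above 0, with a median of 1.44, but none of the 15 passed, with an adjusted p in limma of 0.0987 for Cd79a and 0.0549 for Cd79b. Without Lf-/- pre-pro-B replicate 2, 6 of 14 passed, where 123 of all 10529 genes did, against 20 of 10793 with that library. Monocyte and macrophage markers took 0.0820 to 0.243%, led by Ly6c2, Cd14 and Ms4a6c, with 0 of 10 passing over both stages, and this share was highest in WT pre-pro-B replicate 2, the library with the highest Cyba. Eosinophil markers, led by Prg2, Epx and Siglecf, took 0.0459 to 0.412% with 0 of 4 tested passing. T and NK markers, led by Nkg7, Cd3d and Gzma, took 0.0607 to 0.167% with 0 of 8, and erythroid markers, led by Hba-a1, Hbb-bs and Car2, 1.30 to 10.4% with 0 of 6. Nkg7 was at 324 to 1283 FPKM, Ly6c2 at 563 to 1812 and Prg2 at 332 to 3242. No other gene of their lists passed 55.6 FPKM, so the shares of these lists are mainly those of single genes. At an unadjusted p of 0.05, which 7.17% of all genes passed, the counts of the monocyte and macrophage, eosinophil, T and NK, and erythroid lists were 1, 1, 1 and 0 in limma. Those of the other 3 were 4 of 18 neutrophil (the deleted Ltf among them), 12 of 15 early B lineage and 3 of 5 plasmacytoid dendritic cell markers. The markers listed at 0 in Lf-/- pre-pro-B replicate 2 alone were Rag2 of the early B list, Siglecf and Ccr3 of the eosinophil list, and Cd3g, Trac, Klrb1c and Il2rb of the T and NK list, and Rag1 was listed at 0 in the WT pro-B library. The erythroid share was highest in Lf-/- pre-pro-B replicate 2, the library with the highest Cybb and Ncf4. Plasmacytoid dendritic cell markers, led by Ly6d, Bst2 and Siglech, took 0.0193 to 0.436%, of which Ly6d alone made up 82.9 to 98.7%, and 1 of 5 tested, Ly6d (2.85, SE 0.30, adjusted p = 0.0136 in limma, and 0.0549 after median-ratio scaling), passed. Ly6d and Siglech were both highest in Lf-/- pre-pro-B replicate 2. In Lf-/- pre-pro-B replicate 1, however, Ly6d was at 2288 FPKM and Siglech at its lowest, 1.98. The share of this list is therefore that of Ly6d and does not measure the cell type. The part of these cell types in the subunit levels was not tested.

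**Figure D4:**
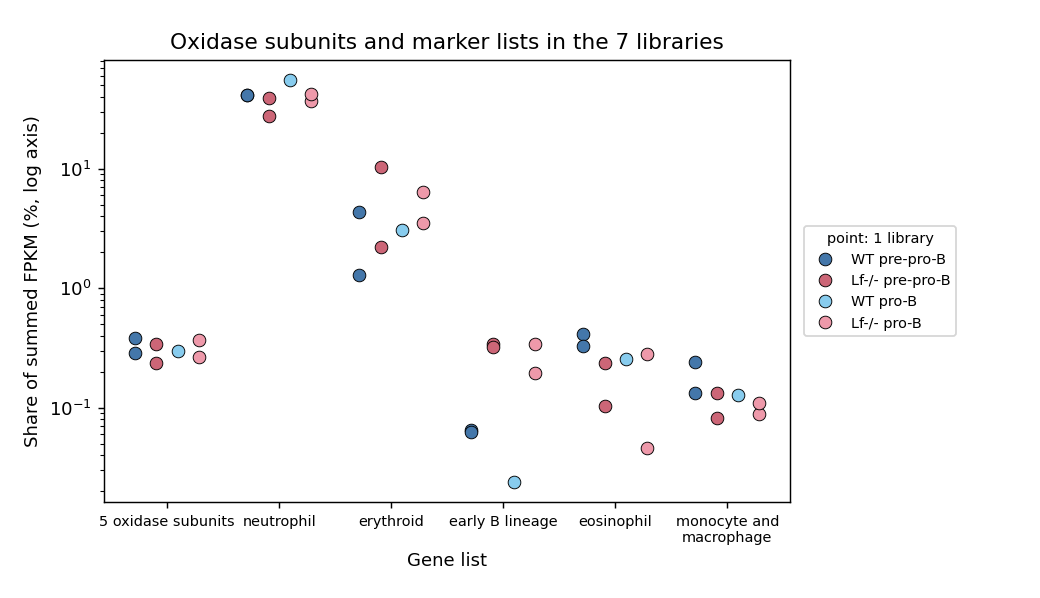
Share of each library's summed FPKM (percent, log axis) taken by the 5 oxidase subunit genes and by 5 marker lists, with 1 point per library. The subunits stay between 0.238 and 0.381%, while early B lineage markers run from 0.0238 to 0.342% and neutrophil markers from 27.5 to 55.3%.

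The genes with the most similar profile over the 7 libraries were found by the root-mean-square distance between centred log2(FPKM + 1) values among the 3235 genes with a mean of at least 10 FPKM. They were Tax1bp1, Pole3 and Rrm1 for Cybb, Gm5620, Ndufb7 and Gm17383 for Cyba, Def6, Rps24-ps3 and Gsn for Ncf1, Zfp414, Edf1 and Acot8 for Ncf4, and Mrps24, Gm11223 and Pef1 for Rac2, at distances of 0.066 to 0.12. The nearest fellow subunit was at 0.22 to 0.30, where the median gene was at 0.41 to 0.54. The nearest gene is picked from far more genes than the nearest subunit, so these distances do not compare like with like. Ncf4 ranked 592 in likeness to Cybb, Ncf1 ranked 372 to Cyba, Rac2 ranked 360 to Ncf1 and 210 to Ncf4, and Ncf4 ranked 235 to Rac2. Coding transcripts of the subunits were searched with blastn against all GENCODE transcripts, on both strands. Short stretches of near identity were found between Rac2 and Mrpl35 (90.1% over 202 bases), Cybb and Gm45629 (91.2% over 80 bases) and Ncf1 and Gtf2ird2 (100% over 179 bases). None were found for Cyba and Ncf4. Gtf2ird2 overlaps Ncf1 on the opposite strand, and whether their match is the same genomic bases was not tested.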

How the data were processed

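Bone marrow pre-pro-B and pro-B RNA was extracted with a mirVana kit and sequenced on a NovaSeq instrument. The authors deposited 1 value per gene and library, read here as FPKM from the values. The submitters' processing notes name TopHat, Cufflinks, HTSeq and DESeq, without versions, and GRCm38. Libraries were grouped by their labels. Of 52550 genes, 52403 matched GENCODE M21.

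Values were taken to log2(FPKM + 1), which understates the change of low genes, and genes that reached 1 FPKM in 2 or more fitted libraries were tested in R 4.3.3 by limma 3.58.1 (trended variance, two-sided) with Benjamini-Hochberg adjustment over all genes. Pro-B genotypes were compared by a 2-fold rule without a test. Depth was read from value steps in genes with 1 transcript of at least 2000 bases. blastn 2.17.0 and Python 3.11.15 (numpy 2.4.6, pandas 2.3.3, scipy 1.17.1, matplotlib 3.10.9) were used for the rest. The fits were run on simulated data with known changes and a smaller spread than these libraries have. That run checks the code and does not show how the fits perform on these libraries.

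The subunit genes and the lists (other oxidase genes, activation, NADPH supply, oxidant handling, transcription factors and 7 sets of cell type markers) were chosen with earlier results of these data known. Of each list, genes past an adjusted p of 0.05 in any test and the 3 most abundant are named, and the further oxidase genes, except some genes that are not reported here. Per subunit, the 3 genes of the most similar profile are named. Alternatives tried were median-ratio scaling, quantile normalization, other filters, a pseudocount of 0.1, replicate blocks, other models and each library left out.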

Additional observations from a re-analysis of the deposited data

Results flagged for a closer look

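Ncf1 was noted because both Lf-/- values were below both WT values in pre-pro-B cells and both were above the WT value in pro-B cells. Of all genes tested, 17.7% were below in this way in pre-pro-B cells and 77.3% above in pro-B cells. The share of genes with both patterns was not computed. The genotype difference was -0.37 for pre-pro-B and 0.21 for pro-B cells. The interaction was 0.58 (SE 0.57) with an adjusted p of 0.990 in limma. The pro-B side rests on 1 WT library, and with median-ratio scaling the difference between stages was 0.12.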

How the results depend on the processing

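No subunit gene passed an adjusted p of 0.05 in limma under any of the 260 alternative values that had a test, and the other 35 were pro-B differences without one. Among those 35, Cyba passed 2-fold after median-ratio scaling, as did 774 of 9662 genes. Among the 260, the lowest adjusted p was that of Cybb in pre-pro-B cells without Lf-/- pre-pro-B replicate 1. There the library that stands apart is the only Lf-/- library. The signs of small differences depended on scaling. With median-ratio scaling, Ncf4 was at -0.084 in pre-pro-B cells, Cybb at -0.18, Ncf4 at -0.27 and Rac2 at -0.20 over both stages, Rac2 at 0.069 between stages, and the interaction at -0.41 for Cyba, -0.47 for Ncf4 and -0.030 for Rac2. The pro-B differences were then -0.55 for Cybb, -1.02 for Cyba, -0.43 for Ncf1, -0.56 for Ncf4 and -0.22 for Rac2. With quantile normalization, Cybb was at -0.039 over both stages and at -0.40 in pro-B cells, Ncf1 at -0.29 in pro-B cells, Ncf4 at 0.0040 and Rac2 at 0.19 between stages, and Ncf4 at -0.47 in the interaction. The cause was not tested.

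The replicate numbers were used as names, not as pairs. The differences between replicates correlated at 0.04 between the genotypes in pre-pro-B cells and at -0.01 between the stages in Lf-/- cells, over 10793 genes, and both values use Lf-/- pre-pro-B replicate 2, the library that stands apart. The WT libraries could not be checked across stages, with 1 pro-B library. With the replicate number as a block, 65 genes passed in pre-pro-B cells and 0 between stages, Ncf4 was at -0.033 over both stages and Rac2 at 0.067 between stages. With the library name as a block, 8 genes passed between stages and Rac2 was at 0.097.

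Counts of all genes moved. Over both stages 20 genes passed, 95% of them higher in Lf-/-, with 7 after median-ratio scaling (71.4% higher), 10 after quantile normalization (80% higher), 0 without a filter, 63 with 1 FPKM required in every library, 9 with a pseudocount of 0.1 and 3 with 4 group means. Between stages 1 gene passed, with 0 after quantile normalization, without a filter, with the pseudocount of 0.1 and with 4 group means, and 6 with the filter in every library. In pro-B cells 1409 genes passed 2-fold, with 774 after median-ratio scaling, 785 after quantile normalization (57.7% higher), 2527 with the pseudocount and 0 in limma in a fit of all 7 libraries, where the lone WT library is assumed to vary like the other groups. In the interaction 0 passed, with 122 without a filter.

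Leaving out each library in turn gave counts of 0 to 3338 in pre-pro-B cells (3338 without Lf-/- pre-pro-B replicate 1, 16 and 24 without WT replicates 1 and 2), 0 to 123 over both stages (123 without Lf-/- pre-pro-B replicate 2, 59 without replicate 1, 0 to 6 without any other library), 0 to 36 between stages (36 without Lf-/- pre-pro-B replicate 2), 1057 to 1559 in pro-B cells and 0 to 561 in the interaction (561 without Lf-/- pre-pro-B replicate 1). The subunit differences then ranged from -0.35 to 0.82 for Cybb, -0.37 to 0.55 for Ncf4 and -0.35 to 0.31 for Rac2 in pre-pro-B cells, from -0.13 to 0.45 for Cybb, -0.37 to 0.045 for Ncf1, -0.14 to 0.32 for Ncf4 and -0.021 to 0.37 for Rac2 over both stages, from -0.52 to 0.068 for Cybb, -0.047 to 0.21 for Cyba, -0.093 to 0.33 for Ncf1, -0.41 to 0.052 for Ncf4 and -0.24 to 0.14 for Rac2 between stages, and from -0.73 to 0.44 for Cybb, -0.19 to 0.33 for Cyba and -0.46 to 0.46 for Ncf4 in the interaction, each range crossing 0. Cyba stayed below 0 in all 3 genotype comparisons, which share libraries. Counting error is small beside these ranges.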
